A study of Drosophila melanogaster with 4 samples.

Results

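RNA of cultured ovarian somatic cells (OSCs) in the library labelled siRpd3, which carries the label of an Rpd3 knockdown, was compared gene by gene with RNA of the control library siEGFP. OSCs are a Drosophila melanogaster cell line grown from the somatic cells of the ovary, and they keep a piRNA pathway built around the nuclear protein Piwi. The samples were OSCs transfected with a small interfering RNA (siRNA) and collected after 4 days, with 1 library each for siRpd3 (aimed at the histone deacetylase Rpd3), siPiwi (aimed at piwi), siMi2 (aimed at the remodeler Mi-2) and siEGFP (aimed at EGFP, the control that the study's text calls GFP). The libraries thus share the cell line and the 4 days of knockdown, and differ in the siRNA. As each group was 1 library of 1 cell line, no difference had a replicate check and no test was run.

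The members are the genes of the deposited table whose FPKM (fragments per kilobase of transcript, scaled to the mapped reads of the library), summed over the transcripts of a gene and averaged over the 4 libraries, was at least 1. This rule kept 7950 of 16769 genes. Of the 7950, 560 were below 1 FPKM in siEGFP and at least 1 in the library labelled siRpd3, 98 were the other way round, and 117 were below 1 in both and passed through siPiwi or siMi2. The lowest mean kept was 1.0 FPKM and the highest left out was 0.999. Whole reads were recovered from the FPKM values. They gave 32638866 mapped reads for the library labelled siRpd3 and 36702889 for siEGFP. Intervals on ratios below are exact 95% Clopper-Pearson intervals on these reads, without a pseudocount. They compare 2 libraries, not 2 conditions, and reflect counting error alone. Reads copied by PCR are not independent molecules, so the intervals can be too narrow.

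Rpd3, listed under its present symbol HDAC1, is the founding class I histone deacetylase of the fly. It removes acetyl groups from histone tails, and as a catalytic subunit of the dNuRD (Mi-2), Sin3 and CoREST complexes it is best known for holding genes in a less active state, although it is also found at active genes. Class I enzymes of this kind reach their targets through the DNA-binding factors that recruit these complexes, among them corepressors of Notch and ecdysone target genes. In OSCs the enzyme was studied for its part in silencing transposable elements downstream of Piwi.

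Under the siRpd3 label, HDAC1 RNA was not below the control. HDAC1 (FBgn0015805, chromosome 3L from 4626734 to 4629467 on the plus strand, release 6 coordinates, the assembly also called dm6) stood at 104 FPKM in the library labelled siRpd3, 109 in siPiwi, 54.7 in siMi2 and 71.3 in siEGFP. This was a log2 ratio to siEGFP of 0.54, with an interval of 0.49 to 0.60 for 7213 reads in the library labelled siRpd3 and 5559 in siEGFP. Relative to genes of similar transcript length, as explained below, the value was -0.29, so that its sign depended on the scale. HDAC1 RNA in this library lay between the levels of siPiwi and siEGFP, whose siRNAs were not aimed at it. The library is therefore called by its label, and each direction given below is a property of that library and not of a measured loss of Rpd3 RNA. The study checked RNAi efficiency in OSCs, with western blots that included Rpd3 protein. Protein is not measured by these libraries.

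The OSC identity of both libraries was checked against marker genes. All 6 OSC markers (tj, zfh1, Fas3, eya, piwi and fs(1)Yb) were above 1 FPKM in each library, with a summed level of 396 FPKM in the library labelled siRpd3 and 204 in siEGFP. In sum, markers of germline, hemocytes, fat body and neurons were well below those of OSCs in both libraries. Muscle markers came close to the OSC sum in the library labelled siRpd3. The 6 germline markers found in the table summed to 5.86 FPKM in the library labelled siRpd3 and 3.20 in siEGFP, where osk and orb were listed at 0. Of 7 hemocyte markers, He, NimC1 and eater were listed at 0 in both libraries, and the sums of 16.7 FPKM in the library labelled siRpd3 and 1.71 in siEGFP were mostly those of srp and Pxn. The 4 fat body markers summed to 0.608 FPKM in the library labelled siRpd3 and 0.0124 in siEGFP, and the 6 neuronal markers to 3.50 and 1.04 FPKM in the same 2 libraries. The muscle markers summed to 352 FPKM in the library labelled siRpd3 and 30.6 in siEGFP, of which Act57B made up 342 and 27.8.

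Most genes had more FPKM in the library labelled siRpd3 than in siEGFP. Differences are given as log2 ratios of FPKM + 0.1, which understates the difference of low genes. Of the 7950 genes, 3250 were more than 2-fold higher (40.9%) and 592 were below 0.5-fold (7.45%), and the median log2 ratio was 0.69. The median FPKM over the genes was 24.1 in the library labelled siRpd3, against 13.2 in siEGFP. The split between higher and lower genes depended on the scale. With both libraries set to the same median FPKM, log2 ratios moved by -0.87, less in genes near the pseudocount, and 1524 genes were higher and 2108 lower. With both set to the same level of RpL32, a ribosomal protein gene used as a reference in such studies, ratios moved by 1.27, again less in such genes, and 6103 were higher and 84 lower. The plain medians of 11 of the 44 gene lists described below changed sign under the first scaling and those of 7 under the second.

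The length of the transcript went with the ratio over most of its range. The median log2 ratio to siEGFP in the library labelled siRpd3 was -0.36 for 607 genes with transcripts below 600 nt, 0.27 for 1514 genes of 1000 to 1500 nt, 0.99 for 1580 genes of 2000 to 3000 nt and 2.2 for 129 genes of 7000 to 10000 nt. Above 10000 nt it did not go further, with 2.19 for 45 genes. In the class of 7000 to 10000 nt, 91.5% of genes were higher and 0.775% lower. The level of the gene went the other way. In the 1988 genes with the lowest mean FPKM the median log2 ratio was 1.33, and in the 1988 with the highest it was -0.16. With genes split by both, the median log2 ratio was -0.41 for 795 genes that were among both the 1988 shortest and the 1988 most abundant, and 1.84 for 738 among both the 1986 longest and the 1988 least abundant. Genes with more exons had higher plain ratios, with medians of 0.02 for 696 coding genes of 1 exon and 1.72 for 943 genes of over 8, but in length-matched terms these medians were -0.24 and 0.16. In siPiwi and siMi2 the medians for the same length classes ran from 0.053 to 0.71 and from 0.047 to 0.39 over siEGFP, a narrower range than in the library labelled siRpd3.

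**Figure D1:**
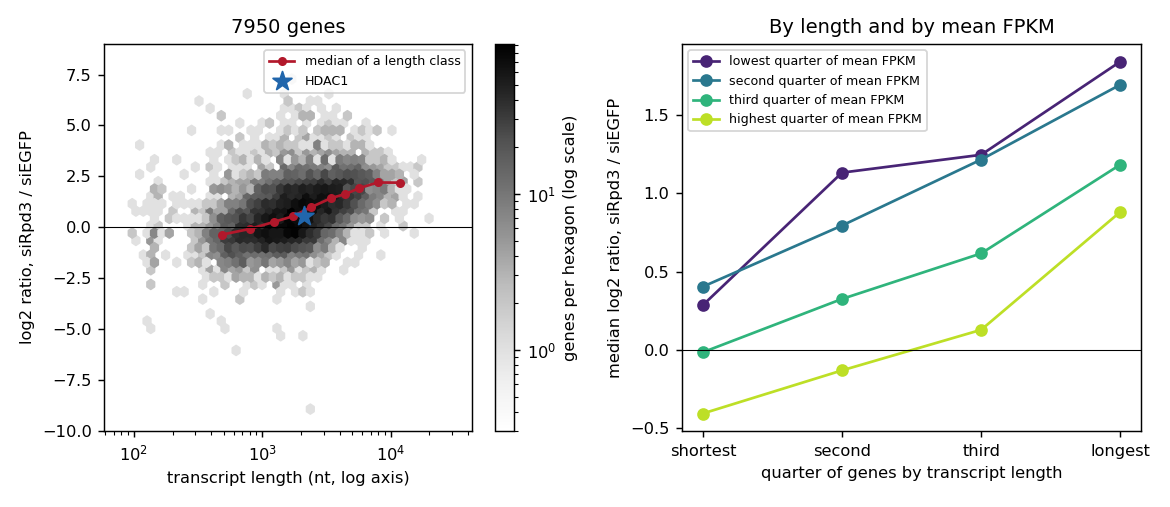
Left, log2 ratio of FPKM + 0.1 (siRpd3 over siEGFP) against transcript length in nt on a log axis for 7950 genes, as a count of genes per hexagon, with the median of each length class in red and HDAC1 as a star. Right, median log2 ratio for 4 classes of equal size by length (horizontal axis) and 4 by mean FPKM (lines). Medians climb from -0.36 below 600 nt to 2.2 at 7000 to 10000 nt, and the lines for more abundant genes lie lower in the 3 classes of greater length.

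For this reason a second scale was used throughout. The length-matched log2 ratio of a gene is its plain log2 ratio minus the median of the 200 genes nearest to it in transcript length. On this scale 1418 genes were more than 2-fold higher (17.8%) and 1251 were below 0.5-fold (15.7%). Of the 3250 genes higher on the plain scale, 1354 were also higher on the length-matched scale, 1889 were within 2-fold and 7 were lower. Of the 592 lower on the plain scale, 518 were lower on both. Length matching did not remove the trend with the level of the gene. The median length-matched log2 ratio was 0.34 in the 1988 genes with the lowest mean FPKM and -0.44 in the 1988 with the highest. Medians of lists of abundant or sparse genes include this trend, and its part in them was not tested. In what follows, higher and lower mean past 2-fold and 0.5-fold on the scale named. The share over all genes on the same scale (40.9% higher and 7.45% lower plain, 17.8% and 15.7% length-matched) is the background for each count. Because no test was possible, a list's count and median describe these 2 libraries only. The minimum of 1 FPKM also admits a gene that is nearly silent in siEGFP through a library where it is high, so the count of higher genes among the kept members of a list is partly set by it, most of all in lists with few members kept.

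The partners of Rpd3 were first examined, since the siRNA was aimed at their catalytic subunit. On the plain scale, 7 of the 8 subunits of dNuRD and of dMec, the smaller complex of Mi-2 and MEP-1, were higher than in siEGFP, against 40.9% of all genes, HDAC1 being the exception, and none were lower, against 7.45%. On the length-matched scale 1 of 8 was higher, against 17.8% of all genes, and none lower, against 15.7%, with a median of 0.48. MEP-1, the zinc finger partner of Mi-2, had 79.5 FPKM in the library labelled siRpd3, against 13.9 FPKM in siEGFP. Its transcript is long, and the length-matched log2 ratio was 0.82. Mi-2, the ATPase, had 83.6 FPKM in the library labelled siRpd3 and 34.4 FPKM in siEGFP, and its length-matched log2 ratio was -0.79. MBD-like, related to methyl-CpG-binding proteins, was the subunit higher on both scales, with 47.7 FPKM in the library labelled siRpd3, against 19.4 FPKM in siEGFP (log2 ratio 1.29 plain and 1.18 length-matched). The histone-binding subunit Caf1-55 (p55) had 155 FPKM in the library labelled siRpd3 and 58.2 FPKM in siEGFP. MTA1-like, a subunit of dNuRD but not of dMec, had 24.5 FPKM in the library labelled siRpd3, against 7.23 FPKM in siEGFP, and simj (p66) had 24.5 FPKM in the library labelled siRpd3 and 12.1 FPKM in siEGFP. CDK2AP1 had 63.9 FPKM in the library labelled siRpd3, against 23.6 FPKM in siEGFP, with a length-matched log2 ratio of 0.85.

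In the Sin3 and CoREST complexes, 6 of 12 genes were higher and none lower on the plain scale, and 1 was higher and 1 lower on the length-matched scale (median 0.16). Sap30, a small subunit of the Sin3 complex, was the higher one, with 33.8 FPKM in the library labelled siRpd3, against 9.33 FPKM in siEGFP (length-matched log2 ratio 1.32). Sin3A, the scaffold, had 17.4 FPKM in the library labelled siRpd3 and 3.06 FPKM in siEGFP, a plain log2 ratio of 2.47 that was 0.31 after length matching. CoRest, the scaffold of the other complex, had 168 FPKM in the library labelled siRpd3, against 42.7 FPKM in siEGFP, and Su(var)3-3, its H3K4 demethylase, had 9.01 FPKM in the library labelled siRpd3 and 2.65 FPKM in siEGFP. The lowest was CG3815, with 27.3 FPKM in the library labelled siRpd3, against 25.7 FPKM in siEGFP (length-matched -1.05). Most plain differences of both groups of subunits were thus within 2-fold of those of genes of similar length.

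**Figure D2:**
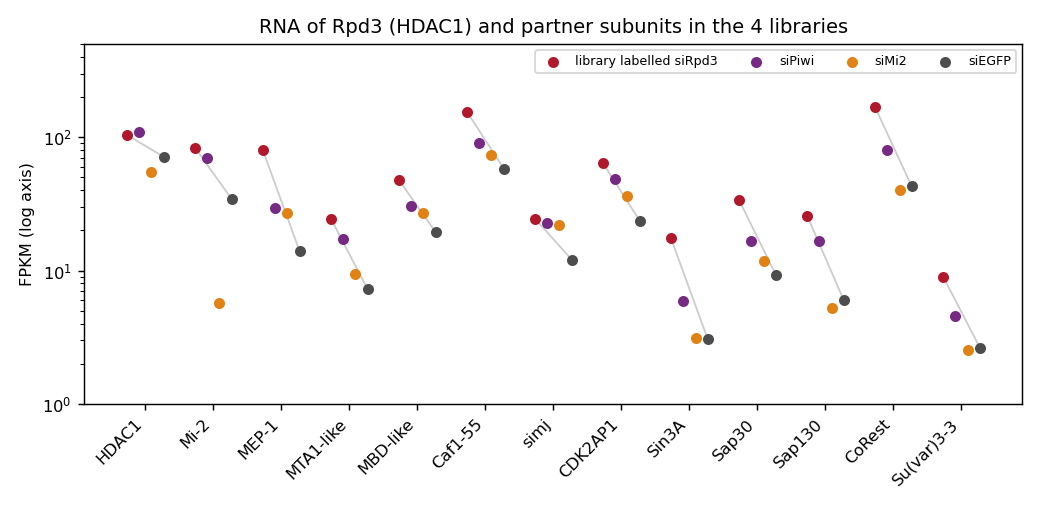
FPKM on a log axis of HDAC1 (Rpd3) and of 12 genes for subunits of its complexes, with 1 point per library (siRpd3, siPiwi, siMi2 and siEGFP from left to right within a gene) and a grey line joining siRpd3 to siEGFP. HDAC1 is at 104 FPKM in the library labelled siRpd3 and 71.3 in siEGFP, while Mi-2 is at its lowest, 5.67, in siMi2.

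The other histone deacetylases were within 2-fold for their length except HDAC11, with 5.64 FPKM in the library labelled siRpd3, against 2.38 FPKM in siEGFP (length-matched log2 ratio 1.11), and Sirt4, a mitochondrial sirtuin, with 16.9 FPKM in the library labelled siRpd3 and 32.8 FPKM in siEGFP (length-matched -1.0, just past 0.5-fold). HDAC3, the other class I enzyme, had 21.4 FPKM in the library labelled siRpd3, against 29.6 FPKM in siEGFP. The opposing enzymes, histone acetyltransferases and their complexes, had 27 genes above the minimum. Of these, 11 were higher and 2 lower on the plain scale (median log2 ratio 0.49), and 3 were higher and 3 lower on the length-matched scale (median -0.39). Both of the lowest belong to SAGA, a coactivator complex that acetylates histone H3. Its subunit Saf6 had 39.3 FPKM in the library labelled siRpd3, against 337 FPKM in siEGFP, a length-matched log2 ratio of -3.98, and was among the 12 lowest genes with at least 20 reads in both libraries. Its catalytic subunit Gcn5 had 61.7 FPKM in the library labelled siRpd3 and 121 FPKM in siEGFP (length-matched -2.10). Saf6 was also low in the other knockdown libraries, at 71.3 FPKM in siPiwi and 69.1 in siMi2, so that siEGFP was the library that stood apart for this gene. The acetyltransferase gene nej, the fly counterpart of a mammalian coactivator family, had 6.16 FPKM in the library labelled siRpd3, against 1.05 FPKM in siEGFP, which was 0.24 on the length-matched scale.

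Genes of the nuclear Piwi machinery, the silencing pathway the study examined, were read next. In the nucleus Piwi is guided by piRNAs to nascent transcripts, and Panx, nxf2, Su(var)2-10 and the H3K9 methyltransferase egg act after it. Among 14 such genes, 5 were higher and 0 lower on the plain scale (median log2 ratio 0.86), and 3 were higher and 1 lower on the length-matched scale (median 0.03). The 3 higher ones on the length-matched scale were Sumo, Su(var)2-10 and Panx. Sumo, the small ubiquitin-like modifier, had 671 FPKM in the library labelled siRpd3, against 186 FPKM in siEGFP (length-matched 1.99). The SUMO ligase Su(var)2-10 had 36.9 FPKM in the library labelled siRpd3 and 7.11 FPKM in siEGFP (length-matched 1.39). Panx had 8.42 FPKM in the library labelled siRpd3, against 2.28 FPKM in siEGFP, a length-matched log2 ratio of 1.17. The gene piwi itself had 84.6 FPKM in the library labelled siRpd3 and 73.5 FPKM in siEGFP, within 2-fold on the plain scale (log2 ratio 0.20) and lower for its length (-1.25). The RNAs of egg (33.2 FPKM in the library labelled siRpd3, against 17.3 FPKM in siEGFP) and of arx, the gene of the Piwi partner Gtsf1 (28.9 FPKM in the library labelled siRpd3 and 30.5 FPKM in siEGFP), were within 2-fold on both scales. The cofactor of egg, wde, did not reach the minimum, with 2.13 FPKM in the library labelled siRpd3, against 0.2999 FPKM in siEGFP.

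In the cytoplasm, piRNAs of OSCs are made from single-stranded precursors in bodies organised by fs(1)Yb. Of 15 genes of this machinery, 3 were higher and 0 lower on the plain scale (median log2 ratio 0.55), and none were higher and 4 lower on the length-matched scale (median -0.38). The 4 lower ones were fs(1)Yb, vret, SoYb and mino. Of these, fs(1)Yb had 38.8 FPKM in the library labelled siRpd3, against 53.3 FPKM in siEGFP (length-matched -1.97), and the Tudor-domain gene vret had 25.2 FPKM in the library labelled siRpd3 and 43.9 FPKM in siEGFP (-1.71). Hsp83, the fly Hsp90, which also serves in loading Piwi, had the highest length-matched value of the list, 0.79, with 3349.6 FPKM in the library labelled siRpd3, against 940.2 FPKM in siEGFP. The gene ex, which carries a transposable element in its first intron in OSCs and is used as a readout of Piwi silencing, had 816 reads in the library labelled siRpd3, against 23 in siEGFP. This was 3.81 FPKM in the library labelled siRpd3, 0.679 in siPiwi, 1.22 in siMi2 and 0.0953 in siEGFP, and the length-matched log2 ratio to siEGFP was 2.28. Another gene used in the study as a target of artificial piRNAs, krimp, had 32.2 FPKM in the library labelled siRpd3 and 10.7 FPKM in siEGFP, with a length-matched value of 0.53.

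Among the lists with over 2 kept genes, the inducible Hsp70 genes had the length-matched median farthest from 0. All 7 members, 6 Hsp70 copies and Hsp68, were higher on both scales, with a length-matched median of 2.69 against 0.01 for all genes. These chaperones bind unfolded proteins and are transcribed on heat or proteotoxic stress. The Hsp70 copies are near-identical and can share reads, so they are reported as a group. Hsp70Aa had 461 FPKM in the library labelled siRpd3, 11.9 in siPiwi, 62.4 in siMi2 and 9.37 in siEGFP, and Hsp70Ab had 464 FPKM in the library labelled siRpd3, against 9.17 FPKM in siEGFP. The other 4 copies (Hsp70Ba, Hsp70Bb, Hsp70Bbb and Hsp70Bc) were listed at lower levels, from 16.9 to 30.7 FPKM in the library labelled siRpd3, against 1.41 to 2.705 in siEGFP. Hsp68 had 152 FPKM in the library labelled siRpd3 and 29.6 FPKM in siEGFP (length-matched 1.37).

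Of 17 small heat shock and co-chaperone genes, 10 were higher and 2 lower on the plain scale (median log2 ratio 1.20), and 5 were higher and 3 lower on the length-matched scale (median 0.69). The BAG-domain co-chaperone stv had 334 FPKM in the library labelled siRpd3, against 22.97 FPKM in siEGFP (length-matched 2.53), and the Hsp40 gene DnaJ-1 had 109 FPKM in the library labelled siRpd3 and 27.4 FPKM in siEGFP (1.36). Hsp22, Stip1 and Droj2 were also higher for their length. By contrast, the gene of the mitochondrial chaperonin, Hsp60A, was lower, with 791 FPKM in the library labelled siRpd3, against 1933 FPKM in siEGFP (length-matched -2.16), as were Hsc70-5, the mitochondrial Hsp70, and Hsp67Bc. The transcription factor of the heat shock response, Hsf, had 47.4 FPKM in the library labelled siRpd3 and 23.03 FPKM in siEGFP, a length-matched value of -0.09.

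Genes that respond to unfolded protein in the endoplasmic reticulum did not follow the cytosolic chaperones. Of 22 genes, 7 were higher and 1 lower on the plain scale (median log2 ratio 0.25), and 1 was higher and 5 lower on the length-matched scale (median -0.60). The lowest was Xbp1, the transcription factor spliced by Ire1, with 404 FPKM in the library labelled siRpd3, against 1265 FPKM in siEGFP (length-matched -2.55). The lectin chaperone Cnx99A was the higher one, with 212 FPKM in the library labelled siRpd3 and 48.3 FPKM in siEGFP (1.37), while the gene of the luminal Hsp70, Hsc70-3, stood at 299 FPKM in the library labelled siRpd3, against 168 FPKM in siEGFP (-0.73). Of 36 proteasome genes, 10 were higher and 1 lower on the plain scale (median log2 ratio 0.50), and 8 were higher and 1 lower on the length-matched scale (median 0.18). Rpn5, a subunit of the regulatory lid, had 122 FPKM in the library labelled siRpd3 and 17.4 FPKM in siEGFP (2.23), and the core subunit Prosbeta3 had 445 FPKM in the library labelled siRpd3, against 88.4 FPKM in siEGFP (2.23). On the length-matched scale 27 of 36 were within 2-fold, and over all genes 17.8% were higher and 15.7% lower. Prosalpha6, for example, had 668 FPKM in the library labelled siRpd3 and 662 FPKM in siEGFP. The lowest, Prosbeta2R2, and the highest, Rpt6R, are paralogues of core genes, and reads could be shared with these.

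**Figure D3:**
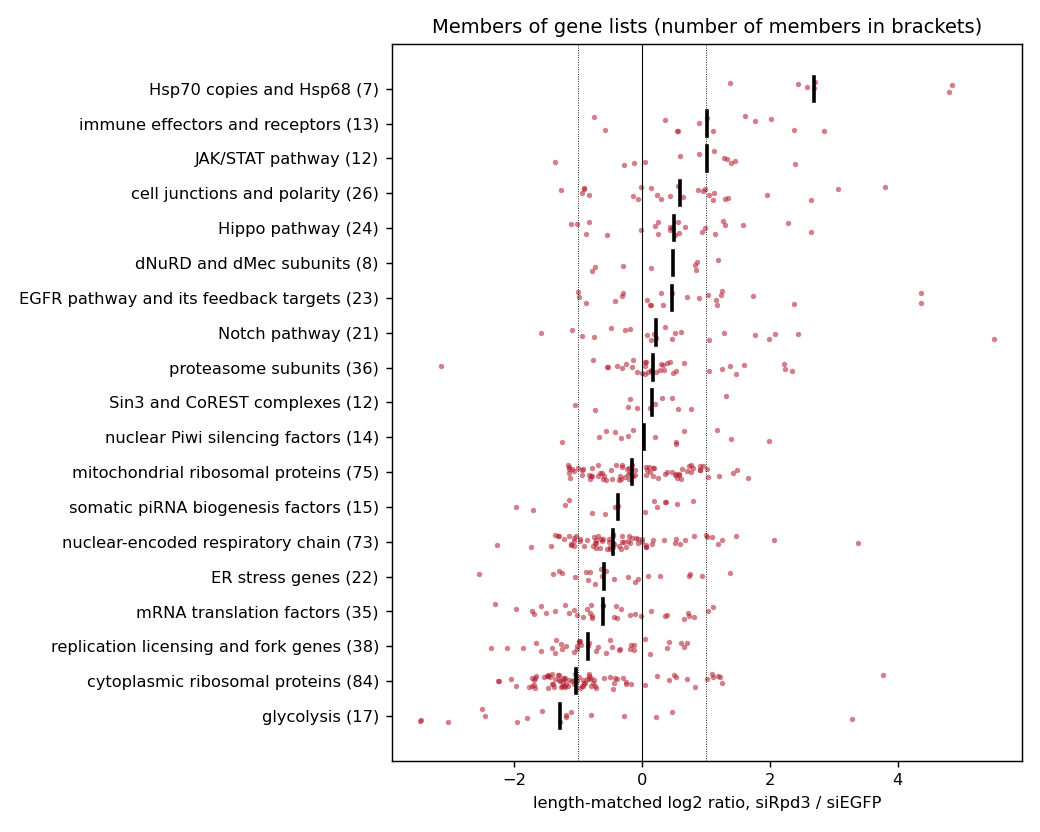
Length-matched log2 ratio (siRpd3 over siEGFP, horizontal axis) of each gene of 19 lists, ordered by the list's median (black bar), with the number of genes in brackets. Dotted lines mark 2-fold and 0.5-fold. Medians run from -1.29 for glycolysis and -1.03 for cytoplasmic ribosomal proteins to 2.69 for the Hsp70 copies and Hsp68. Glycolysis was listed after values had been seen.

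Genes of epithelial junctions and polarity, listed after values had been seen, were mostly higher on the plain scale but mostly within 2-fold for their length. Their median transcript was 3942.5 nt, and 65.6% of all genes of 3000 to 4000 nt were higher on the plain scale. Of 26 genes, 21 were higher and 0 lower on the plain scale (median log2 ratio 2.15), and 9 were higher and 1 lower on the length-matched scale (median 0.59). Fas3, an adhesion molecule of the septate junction and a marker of follicle cells, had 49.4 FPKM in the library labelled siRpd3, 9.12 in siPiwi, 4.51 in siMi2 and 1.57 in siEGFP, a length-matched log2 ratio to siEGFP of 3.80. Fas2, an adhesion molecule of the same superfamily, had 32.6 FPKM in the library labelled siRpd3, against 1.17 FPKM in siEGFP (3.06). The apical determinant crb had 6.27 FPKM in the library labelled siRpd3 and 0.138 FPKM in siEGFP (2.64), and Lac, a septate junction protein, 122 FPKM in the library labelled siRpd3, against 16.3 FPKM in siEGFP (1.95). Armadillo, the beta-catenin gene arm, was the lower one, with 338 FPKM in the library labelled siRpd3 and 314 FPKM in siEGFP and a long transcript (-1.27 length-matched).

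The follicle and somatic gonad list, of which 19 genes were kept, gave a length-matched median of -0.19, with 4 higher and 5 lower. Besides Fas3 and Fas2, the transcription cofactor eya was higher, with 73.8 FPKM in the library labelled siRpd3, against 7.84 FPKM in siEGFP (length-matched 1.72), as was the ETS factor pnt. The transcription factor gene tj, which marks somatic gonad cells, had 135 FPKM in the library labelled siRpd3 and 63.97 FPKM in siEGFP, which was -0.39 for its length. The FGF ligand gene bnl was the lowest of the list, with 1.02 FPKM in the library labelled siRpd3, against 4.73 FPKM in siEGFP (-3.73). On the plain scale 13 genes of the list were higher and 1 lower. The shares over all genes were 40.9% and 7.45% plain, and 17.8% and 15.7% length-matched.

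Signalling pathways of the ovarian soma were then taken in turn. In the JAK/STAT pathway, where Unpaired ligands act through the receptor dome and the kinase hop on Stat92E, 11 of 12 genes were higher on the plain scale and 6 on the length-matched scale, where 1 was lower (median 1.01). The ligand gene upd2 had 16.2 FPKM in the library labelled siRpd3, against 1.87 FPKM in siEGFP (length-matched 2.40), and upd3 had 4.304 FPKM in the library labelled siRpd3 and 0.785 FPKM in siEGFP (1.33). Stat92E had 56.2 FPKM in the library labelled siRpd3, against 6.94 FPKM in siEGFP (1.45), and hop had 12.2 FPKM in the library labelled siRpd3 and 1.59 FPKM in siEGFP (1.13). The receptor dome, with 57.5 FPKM in the library labelled siRpd3, against 20.9 FPKM in siEGFP, and the feedback target Socs36E, with 118 FPKM in the library labelled siRpd3 and 40.01 FPKM in siEGFP, were within 2-fold for their length, while the phosphatase gene Ptp61F was higher (1.28). The gene below 0.5-fold for its length was chinmo, a target of the pathway in the testis, with 3.01 FPKM in the library labelled siRpd3, against 1.62 FPKM in siEGFP (-1.36). Su(var)2-10, described above, also belongs to this list as the PIAS gene.

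The Hippo pathway restrains the coactivator yki through the kinases hpo and wts. Of its 24 genes, 15 were higher and 0 lower on the plain scale (median log2 ratio 1.63), and 6 were higher and 2 lower on the length-matched scale (median 0.49). The 6 higher ones were crb, ex, Pez, scrib, kibra and yki, so that upstream and apical members were among them. The upstream gene kibra had 7.42 FPKM in the library labelled siRpd3, against 0.725 FPKM in siEGFP (length-matched 1.26), and yki had 49.3 FPKM in the library labelled siRpd3 and 15.4 FPKM in siEGFP (1.14). The kinase gene hpo had 55.7 FPKM in the library labelled siRpd3, against 29.6 FPKM in siEGFP (-0.01), and wts had 5.48 FPKM in the library labelled siRpd3 and 0.977 FPKM in siEGFP (0.44). The targets Diap1 (87.3 FPKM in the library labelled siRpd3, against 76.5 FPKM in siEGFP) and CycE (9.52 FPKM in the library labelled siRpd3 and 2.18 FPKM in siEGFP) differed from each other in plain terms and were both within 2-fold for their length.

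Of 21 Notch pathway genes, 14 were higher and 1 lower on the plain scale (median log2 ratio 1.74), and 7 were higher and 2 lower on the length-matched scale (median 0.22). The target E(spl)malpha-BFM had 154 reads in the library labelled siRpd3, against 2 in siEGFP (95% interval of the fold, 23.6 to 721), and E(spl)mbeta-HLH had 35.8 FPKM in the library labelled siRpd3, against 9.05 FPKM in siEGFP (length-matched 1.98). Another target of the same complex, E(spl)m3-HLH, was lower for its length, with 66.5 FPKM in the library labelled siRpd3 and 121 FPKM in siEGFP (-1.11). The glycosyltransferase gene fng had 41.2 FPKM in the library labelled siRpd3, against 4.83 FPKM in siEGFP (2.44), and the inhibitor numb had 4.94 FPKM in the library labelled siRpd3 and 0.348 FPKM in siEGFP (2.09). The receptor N had 7.698 FPKM in the library labelled siRpd3, against 2.28 FPKM in siEGFP, which was -0.49 after length matching.

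In the EGFR pathway, listed after values had been seen, 17 of 23 genes were higher and none lower on the plain scale, and 9 were higher and 0 lower on the length-matched scale (median 0.46). The genes rau and edl, both feedback targets of the pathway, were among the 12 highest genes with at least 20 reads in both libraries. Thus rau had 201 FPKM in the library labelled siRpd3, 27.96 in siPiwi, 70.1 in siMi2 and 4.79 in siEGFP (length-matched 4.37), and edl had 15.5 FPKM in the library labelled siRpd3, against 0.4497 FPKM in siEGFP (4.37). The adaptor drk had 117 FPKM in the library labelled siRpd3 and 20.8 FPKM in siEGFP (2.37). The receptor Egfr, with 18.98 FPKM in the library labelled siRpd3, against 9.92 FPKM in siEGFP, was at the 0.5-fold limit for its length (-1.0), and the ligand spi had 100.1 FPKM in the library labelled siRpd3 and 141 FPKM in siEGFP (-0.88). Ligand, receptor and targets were thus not alike.

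Wnt pathway genes, also listed after values had been seen, gave 4 higher and 4 lower of 20 on the length-matched scale (median 0.13). Wnt6 had 77.2 FPKM in the library labelled siRpd3, 7.29 in siPiwi, 8.22 in siMi2 and 1.45 in siEGFP, from 7170 reads in the library labelled siRpd3 and 152 in siEGFP (length-matched 4.48). Its neighbour in the genome, wg, had 6.25 FPKM in the library labelled siRpd3, against 0.243 FPKM in siEGFP (2.86). The receptor gene fz3 had 8.48 FPKM in the library labelled siRpd3 and 0.889 FPKM in siEGFP (2.19). The ligand Wnt2 was lower, with 15.8 FPKM in the library labelled siRpd3, against 27.04 FPKM in siEGFP (-1.76), and so was por, whose product lipidates Wnt ligands, with 16.5 FPKM in the library labelled siRpd3 and 40.8 FPKM in siEGFP (-1.99).

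Genes of cell death were taken after the signalling pathways. Of 16 apoptosis regulators, 8 were higher and 1 lower on the plain scale (median log2 ratio 0.74), and 5 were higher and 3 lower on the length-matched scale (median -0.11). The inhibitor-of-apoptosis antagonist hid had 1024 reads in the library labelled siRpd3, against 24 in siEGFP, or 10.2 FPKM in the library labelled siRpd3, against 0.185 FPKM in siEGFP (length-matched 4.22). A second antagonist, rpr, had 1.84 FPKM in the library labelled siRpd3 and 0.423 FPKM in siEGFP (1.75). The caspase genes Strica and Dcp-1 and the TNF ligand egr were also higher for their length, as with Dcp-1 at 68.5 FPKM in the library labelled siRpd3, against 16.8 FPKM in siEGFP (1.55). The effector caspase gene Drice was just lower for its length, with 154 FPKM in the library labelled siRpd3 and 198 FPKM in siEGFP (-1.02), like the inhibitor Diap2. The lowest was the Bcl-2 relative Buffy, with 0.531 FPKM in the library labelled siRpd3, against 3.94 FPKM in siEGFP (-2.88). Buffy was 20.5 FPKM in siMi2, the highest of the 4 libraries. Over all genes, 17.8% were higher and 15.7% lower on the length-matched scale.

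Most innate immune genes that reached the minimum were higher on the plain scale, a count that the minimum partly sets. Of 35 genes, 22 did not reach the minimum, among them all listed Attacin, Cecropin and Diptericin genes. Of the 13 kept, 10 were higher and 0 lower on the plain scale, and 7 and 0 on the length-matched scale (median 1.02). The NF-kappaB factor Dif had 10.2 FPKM in the library labelled siRpd3, against 0.574 FPKM in siEGFP (length-matched 2.85), and the Toll adaptor Myd88 had 12.5 FPKM in the library labelled siRpd3 and 1.36 FPKM in siEGFP (2.01). The amidase PGRP-LB, which degrades peptidoglycan, had 22.3 FPKM in the library labelled siRpd3, 2.19 in siPiwi, 77.4 in siMi2 and 3.89 in siEGFP. The NF-kappaB inhibitor cact had 43.03 FPKM in the library labelled siRpd3, against 13.01 FPKM in siEGFP (1.02), and Vago, the most abundant of the list, had 306 FPKM in the library labelled siRpd3 and 595 FPKM in siEGFP (-0.75).

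Genes of other tissues mostly failed the minimum in these libraries. Counts of higher genes among those kept are partly set by the minimum. Of 54 neuronal genes, 12 reached the minimum, of which 11 were higher on the plain scale and 6 on the length-matched scale, with none lower on either. Tyrosine hydroxylase, ple, had 11.6 FPKM in the library labelled siRpd3, against 0.334 FPKM in siEGFP (length-matched 3.39), and the potassium channel gene Shal had 6.35 FPKM in the library labelled siRpd3 and 0.477 FPKM in siEGFP (2.39). The pan-neuronal gene elav had 3.01 FPKM in the library labelled siRpd3, against 0.911 FPKM in siEGFP (-0.59), and brp, fne and nSyb did not reach the minimum. Of 14 hemocyte genes 5 were kept. The GATA factor srp had 1355 reads in the library labelled siRpd3, against 16 in siEGFP, or 10.4 FPKM in the library labelled siRpd3 and 0.113 FPKM in siEGFP (4.02), whereas Col4a1, a collagen IV gene, had 5.06 FPKM in the library labelled siRpd3, against 2.199 FPKM in siEGFP (-0.79). Of 17 muscle genes 6 were kept, of which 4 were higher and 1 lower for their length. Act57B had 342 FPKM in the library labelled siRpd3 and 27.8 FPKM in siEGFP (3.09). Zasp66, a Z-disc gene, was the second lowest gene of those with at least 20 reads in both libraries (-5.92). It had 0.888 FPKM in the library labelled siRpd3, 0.922 in siPiwi, 10.9 in siMi2 and 37.1 in siEGFP. Its level in siPiwi was thus about as low as in the library labelled siRpd3. The markers of each tissue were thus unequal, and their part in other results was not tested.

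Act57B belongs with other actin genes, listed after values had been seen. Of 28 genes of actin and its linkage to integrins, 19 were higher and 0 lower on the plain scale (median log2 ratio 1.43), and 7 were higher and 2 lower on the length-matched scale (median 0.38). The formin gene capu had 15.5 FPKM in the library labelled siRpd3, against 0.161 FPKM in siEGFP (4.29), Act42A had 664 FPKM in the library labelled siRpd3 and 79.8 FPKM in siEGFP (2.57), and Act5C, the most abundant, had 2276 FPKM in the library labelled siRpd3, against 1411 FPKM in siEGFP (0.05). The integrin alpha subunit scb had 55.97 FPKM in the library labelled siRpd3 and 2.55 FPKM in siEGFP (2.77), and talin, encoded by rhea, had 59.99 FPKM in the library labelled siRpd3, against 4.37 FPKM in siEGFP (1.56). Over the list of 19 integrin and matrix genes the length-matched median was nevertheless -0.27, with 2 higher and 4 lower. The lowest was PH4alphaEFB, a prolyl hydroxylase of collagen, with 38.6 FPKM in the library labelled siRpd3 and 146 FPKM in siEGFP (-2.89).

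The largest group that was lower consisted of cytoplasmic ribosomal protein genes. Of 84 kept, 3 were higher and 55 lower on the plain scale (median log2 ratio -1.29), and 7 were higher and 43 lower on the length-matched scale (median -1.03). These genes held 14.1% of mapped reads in the library labelled siRpd3 and 31.6% in siEGFP. RpL32 had 2464 FPKM in the library labelled siRpd3, against 5927 FPKM in siEGFP (-0.81 length-matched), and RpL8 had 2795 FPKM in the library labelled siRpd3 and 9876 FPKM in siEGFP (-1.98). With both libraries set to the same level of RpL32, the plain median of the group was -0.02 and 1 gene was lower. RpL32 is itself a member, with a plain log2 ratio of -1.27 beside the group's median of -1.29. That scaling therefore brings the group's median close to no change by construction and cannot show its direction. With both set to the same median FPKM, the group's plain median was -2.16 and 70 genes were lower. The genes were also unequal among themselves in this library. RpS4 had 2421 FPKM in the library labelled siRpd3, against 1203 FPKM in siEGFP (1.01), and RpL28 had 2727 FPKM in the library labelled siRpd3 and 1558 FPKM in siEGFP (1.22), beside RpL10 with 2048 FPKM in the library labelled siRpd3, against 8548 FPKM in siEGFP (-2.06). The highest value was that of RpS10a, a minor paralogue, with 28.2 FPKM in the library labelled siRpd3 and 2.53 FPKM in siEGFP (3.78), and the lowest that of another minor paralogue, RpS5b, with 38.8 FPKM in the library labelled siRpd3, against 180.2 FPKM in siEGFP (-2.26). Both could share reads with the main copies.

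Translation factors went partly the same way, with 2 of 35 higher and 11 lower on the length-matched scale (median -0.61). Rack1, a protein of the small ribosomal subunit, had 2252 FPKM in the library labelled siRpd3, against 6034 FPKM in siEGFP (-1.50), and Tctp had 926 FPKM in the library labelled siRpd3 and 3185 FPKM in siEGFP (-1.97). The elongation factor eEF1alpha1 had 2799 FPKM in the library labelled siRpd3, against 1295 FPKM in siEGFP (0.35). Mitochondrial ribosomal proteins were close to all genes, since 61 of 75 were within 2-fold for their length (median -0.15). Of 73 genes of the nuclear-encoded respiratory chain, 7 were higher and 14 lower on that scale (median -0.46), with complex I subunit ND-39 the lowest (198 FPKM in the library labelled siRpd3, against 595 FPKM in siEGFP). The median transcript was 739 nt in the mitochondrial list and 641 nt in the cytoplasmic one.

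Glycolysis had the lowest length-matched median of the lists read here that had over 2 kept genes. It was listed after values had been seen, so this rank is partly set by that choice. Of 17 genes, 2 were higher and 9 lower on the plain scale (median log2 ratio -1.0), and 1 was higher and 12 lower on the length-matched scale (median -1.29). Lactate dehydrogenase, Ldh, had 324 FPKM in the library labelled siRpd3, 1436 in siPiwi, 734 in siMi2 and 2632 in siEGFP (length-matched -3.47). Gapdh2 had 429 FPKM in the library labelled siRpd3, against 2555 FPKM in siEGFP (-3.04), and its paralogue Gapdh1 had 501 FPKM in the library labelled siRpd3 and 1004 FPKM in siEGFP (-1.18). Arginine kinase, Argk1, which buffers ATP, had 178 FPKM in the library labelled siRpd3, against 1334 FPKM in siEGFP (-3.47). The exception was fbp, the gluconeogenic fructose-1,6-bisphosphatase, with 9.48 FPKM in the library labelled siRpd3 and 0.707 FPKM in siEGFP (3.29). Gapdh2 also had less FPKM in siPiwi (1218) and siMi2 (1568) than in siEGFP.

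Among lipid genes under SREBP, 4 of 11 were lower and none higher for their length (median -0.67). The acetyl-CoA synthetase gene AcCoAS, whose product makes the acetyl donor from acetate, had 53.2 FPKM in the library labelled siRpd3, against 198 FPKM in siEGFP (-2.94), and the desaturase Desat1 had 286 FPKM in the library labelled siRpd3 and 607 FPKM in siEGFP (-1.81). Inos, inositol-3-phosphate synthase, was among the 12 lowest genes with at least 20 reads in both libraries, with 117 FPKM in the library labelled siRpd3, against 954 FPKM in siEGFP (-3.71). Fatty acid synthase, FASN1, had 130.2 FPKM in the library labelled siRpd3 and 42.3 FPKM in siEGFP, higher on the plain scale (1.62) and -0.56 for its length.

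Replication and cell cycle genes differed from each other. Of 38 genes of origin licensing and the replication fork, none were higher and 14 were lower on the length-matched scale (median -0.84), whereas 6 were higher and 3 lower on the plain scale. Mcm3, a subunit of the MCM helicase, had 51.9 FPKM in the library labelled siRpd3, against 124 FPKM in siEGFP (-2.37). Mcm2, Mcm5, Mcm6, Mcm7 and dpa (Mcm4) were also lower for their length but within 2-fold on the plain scale, as with Mcm2 at 48.98 FPKM in the library labelled siRpd3 and 68.4 FPKM in siEGFP (-1.87). The sliding clamp gene PCNA had 222 FPKM in the library labelled siRpd3, against 124 FPKM in siEGFP (0.70). Of 25 cyclins, kinases and E2F genes, 2 were higher and 1 lower for their length (median 0.05). Cdk2 had 19.5 FPKM in the library labelled siRpd3 and 6.69 FPKM in siEGFP (1.40), and aurA, the mitotic kinase, had 57.3 FPKM in the library labelled siRpd3, against 94. FPKM in siEGFP (-1.19).

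Polycomb genes differed between the scales. Of 19 genes, 14 were higher on the plain scale, and 2 were higher and 1 lower for their length (median 0.06). Pc, which binds H3K27me3, had 5.51 FPKM in the library labelled siRpd3, against 1.11 FPKM in siEGFP (2.22 plain and 1.34 length-matched), and Psc had 3.54 FPKM in the library labelled siRpd3 and 0.587 FPKM in siEGFP (2.41 and 0.40 on these scales). Of 28 remodeler genes, 17 were higher on the plain scale against 3 higher and 4 lower for their length. On that scale, Arp8 had 22.7 FPKM in the library labelled siRpd3, against 39.4 FPKM in siEGFP (-1.77), while the SWI/SNF ATPase gene brm had 31.6 FPKM in the library labelled siRpd3 and 4.39 FPKM in siEGFP (1.06).

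Of 18 genes of oxidative and metal stress, 6 were higher and 5 lower on the plain scale (median log2 ratio 0.01). On the length-matched scale 3 were higher and 5 lower (median -0.29), against 17.8% and 15.7% of all genes. The metallothionein gene MtnA, which binds copper and zinc, had 85.5 FPKM in the library labelled siRpd3, against 569 FPKM in siEGFP (length-matched -2.42). Catalase, Cat, had 47.1 FPKM in the library labelled siRpd3, against 98.6 FPKM in siEGFP (-1.81), and the glutathione transferase gene GstE1 had 139 FPKM in the library labelled siRpd3 and 56.6 FPKM in siEGFP (1.32).

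Of 7601 genes with at least 20 reads in both libraries, the 12 with the highest length-matched ratios were CG1572, betaTub97EF, Hsp70Ab, Hsp70Aa, CG5399, Wnt6, CG9689, CG30357, rau, edl, Sp212 and capu, with values from 5.29 to 4.29. CG1572 had 150.3 FPKM in the library labelled siRpd3, 14.4 in siPiwi, 52.9 in siMi2 and 3.75 in siEGFP, from 4905 reads in the library labelled siRpd3 and 140 in siEGFP. The beta-tubulin gene betaTub97EF had 47.3 FPKM in the library labelled siRpd3, 1.85 in siPiwi, 214 in siMi2 and 0.865 in siEGFP, and was thus higher in siMi2 than in the library labelled siRpd3. Sp212, a serine protease gene, had 65.6 FPKM in the library labelled siRpd3, against 2.38 FPKM in siEGFP. The gene next in rank was at 4.28, against 4.29 for capu. The lowest level was that of siEGFP in 11 of the 12 and that of siPiwi in CG9689.

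The 12 lowest were CG9521, Zasp66, Sirup, CG32599, nab, Saf6, CCKLR-17D3, Spn28Dc, bnl, MFS3, Inos and sev, with length-matched values from -9.96 to -3.61. CG9521, a gene of the GMC oxidoreductase family, had 52 reads in the library labelled siRpd3, 11737 in siPiwi, 1293 in siMi2 and 34723 in siEGFP, or 0.703 FPKM in the library labelled siRpd3, 136 in siPiwi, 15.8 in siMi2 and 418 in siEGFP. Of 14 genes of this family, listed after values had been seen, 12 did not reach the minimum, and the other one kept, CG9503, had 4.59 FPKM in the library labelled siRpd3, against 22.2 FPKM in siEGFP. For CG9521, the log2 ratio without a pseudocount had an interval of -9.64 to -8.82. Sirup, a short gene for an assembly factor of succinate dehydrogenase, had 82.8 FPKM in the library labelled siRpd3, 5203 in siPiwi, 3077 in siMi2 and 5728 in siEGFP. Its reads numbered 1851 in the library labelled siRpd3, against 144375 in siEGFP. CG32599 had 1.59 FPKM in the library labelled siRpd3, 6.56 in siPiwi, 57.4 in siMi2 and 57.9 in siEGFP. The receptor tyrosine kinase gene sev had 40.4 FPKM in the library labelled siRpd3, against 109 FPKM in siEGFP, a plain log2 ratio of -1.43 and, with its long transcript, a length-matched one of -3.61. By the plain ratio, CBP, a calcium-binding protein gene, joined CG9521, Sirup, Zasp66 and CG32599 as the 5 lowest, with 4 reads in the library labelled siRpd3 and 462 in siEGFP.

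**Figure D4:**
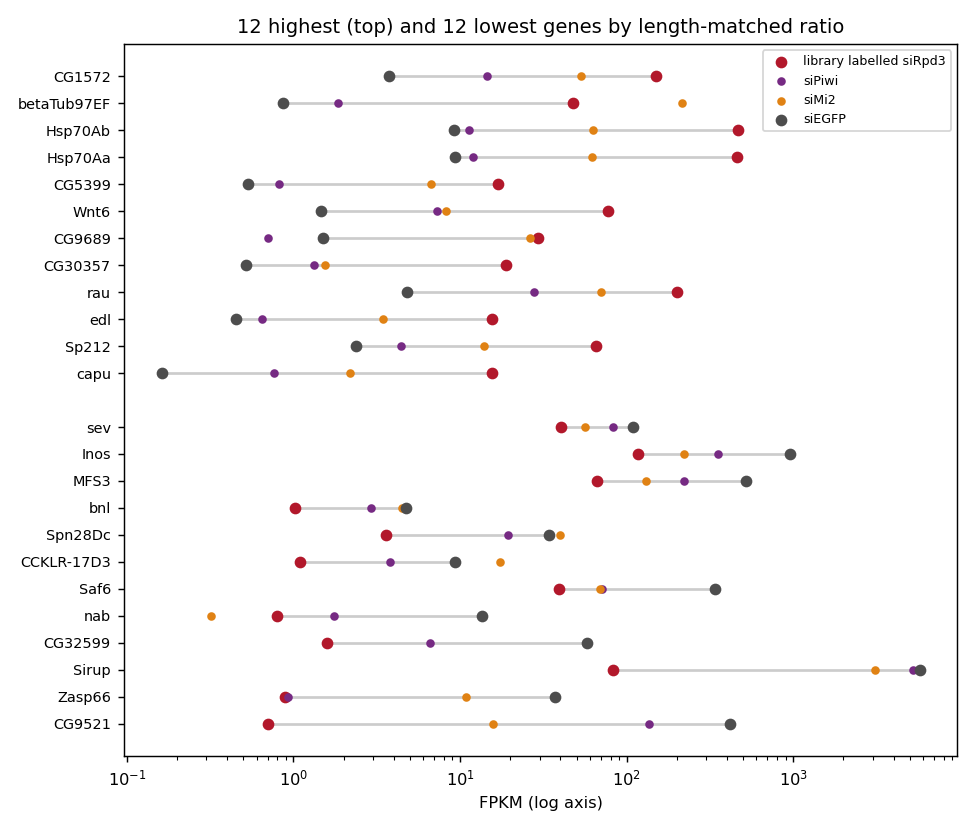
FPKM on a log axis of the 12 genes with the highest (top) and the 12 with the lowest (bottom) length-matched log2 ratio, with a point for each of the 4 libraries and a grey line joining siRpd3 to siEGFP. CG9521 is at 0.703 FPKM in the library labelled siRpd3 and 418 in siEGFP, and Sirup is at 82.8 against 5728 FPKM in the same libraries.

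Genes nearly silent in siEGFP were counted apart, because a ratio to so few reads is uncertain. Of the 7950 genes, 69 had at most 3 reads in siEGFP, and 26 had at most 3 in the library labelled siRpd3. The highest of the 69 in the library labelled siRpd3 was comm, a regulator of midline crossing by axons, with 1149 reads there, 12 in siPiwi, 84 in siMi2 and 0 in siEGFP. Against a floor of 3 reads in siEGFP it was at least 431-fold higher. Gs2, a glutamine synthetase, had 576 reads in the library labelled siRpd3 and 2 in siEGFP (95% interval of the fold, 89.2 to 2681). The rhodopsin gene ninaE had 491 reads in the library labelled siRpd3, 2 in siEGFP and 0 in siPiwi and siMi2. The noncoding RNA lncRNA:CR45234 had 214 reads in the library labelled siRpd3, 149 in siPiwi, 4 in siMi2 and 0 in siEGFP, at least 80.2-fold higher. The 5 highest by the plain ratio were comm, lncRNA:CR45234, CG6357, CG8468 and Ir68a. Of these, CG6357 had 703 reads in the library labelled siRpd3 and 4 in siEGFP, and stood higher in siMi2, with 1483 reads. Ir68a, an ionotropic receptor gene, had 14.8 FPKM in the library labelled siRpd3, 14.8 in siPiwi, 1.7 in siMi2 and 0.0892 in siEGFP, so that its level in siPiwi was as high as in the library labelled siRpd3.

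The level in the library labelled siRpd3 was the highest of the 4 for 4130 of the 7950 genes and the lowest for 1719. Of the 1418 genes higher than siEGFP for their length, it was the highest of the 4 for 1182 (83.4%). Of the 1251 lower ones, it was the lowest for 814 (65.1%). These comparisons share siEGFP by definition. With siPiwi in place of siEGFP, 1241 genes were higher and 815 lower on the length-matched scale, and with siMi2, 991 and 1264.

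Position in the genome was the last feature examined, over 7876 genes with a place in the annotation. On the length-matched scale, the 59 genes of chromosome 4, which is small and mostly heterochromatic, had a median of -0.69, with 2 higher (3.39%) and 16 lower (27.1%). The medians of the 4 large autosomal arms were between 0.02 and 0.09. The 1351 genes of the X had a median of -0.23, with 165 higher (12.2%) and 287 lower (21.2%). The corresponding values for chromosome 4 were -0.53 in siPiwi and 0.61 in siMi2, each over siEGFP, while the X stood at -0.02 in both. The median transcript of chromosome 4 genes was 2705 nt and that of X genes 1960 nt, against 1626 to 1746 nt on the autosomal arms, and their plain medians of 0.52 and 0.50 were below the 0.69 of all genes. Genes of a chromosome share position, length and dosage, and the part of these in the medians was not tested.

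**Figure D5:**
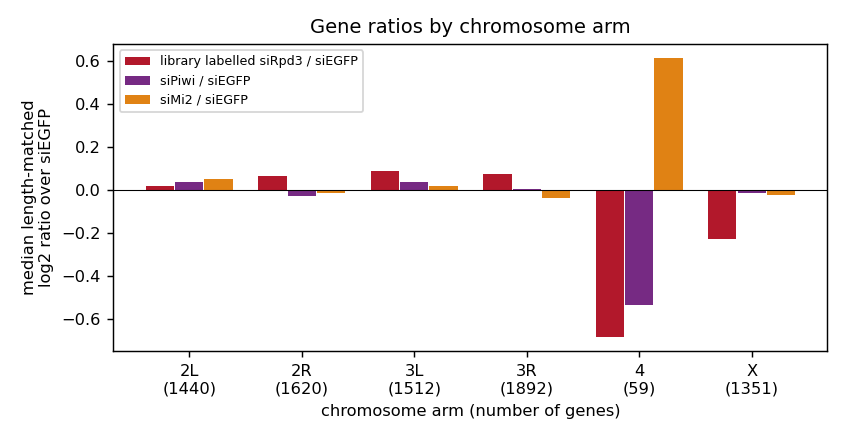
Median length-matched log2 ratio over siEGFP of the genes of each chromosome arm (number of genes in brackets), as bars from 0 for the library labelled siRpd3, siPiwi and siMi2. Chromosome 4 is at -0.69, -0.53 and 0.61 in these libraries, and the X at -0.23, -0.02 and -0.02.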

How the data were processed

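Poly(A) RNA was purified from total RNA of siRNA-transfected OSCs and sequenced for the authors, who deposited FPKM values per transcript. Reads were mapped with Bowtie2 2.2.4 to dm6 and to a transcriptome, the tool and build also being named in the submitters' processing notes. Per the study's methods, counts came from BEDTools genomecov and FPKM were worked out by hand. Use of strand is not given in the sources used here. The transposon table was not used here.

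FPKM of the transcripts sharing a symbol were summed, genes with a mean of at least 1 FPKM over 4 libraries were kept, and log2 ratios of FPKM + 0.1 were taken, plain and minus the median of the 200 genes nearest in transcript length. Whole reads were recovered from the steps of the deposited FPKM values: 27788 of the 28510 rows above 0 had a transcript length from the annotation, 722 were given the shortest length that gave whole reads, and 97.0% to 97.6% of values of single-exon genes came out whole in each library. Mapped reads numbered 32638866 in the library labelled siRpd3, 38060116 in siPiwi, 36143523 in siMi2 and 36702889 in siEGFP, of which 93.7%, 95.6%, 95.6% and 97.5% lay on transcripts. Intervals were exact 95% Clopper-Pearson intervals, and a count of 0 was set to a floor of 3 reads. With 1 library per group no test was run. The code was tested on simulated data.

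Genes named were those the study worked on, the 12 highest and 12 lowest by length-matched ratio with at least 20 reads in both libraries, the 5 highest and 5 lowest by plain ratio, the 5 highest with at most 3 siEGFP reads, and up to 4 of each list. Other genes named were chosen after their values were seen. The members and lists were chosen with earlier results of these data known, and the lists of glycolysis, GMC oxidoreductases, cell junctions, EGFR, Wnt and actin after values were seen. Alternatives were other pseudocounts, minimums, thresholds, length windows, scalings and control libraries, and, chosen after seeing the data, matching on length and mean FPKM together. The work was done in Python 3.11.15 with scipy 1.17.1, pandas 2.3.3 and numpy 2.4.6, and plots in matplotlib 3.10.9.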

Additional observations from a re-analysis of the deposited data

How the results depend on the processing

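No paired analysis was possible because each group has 1 library, and for the same reason no replicate could be left out. With 1 library per group, the values limit what can be said to these libraries, and genes with few reads have wide counting intervals. Main values were 3250 higher, 592 lower and a median of 0.69 on the plain scale, 1418 higher and 1251 lower on the length-matched scale, and 0.54 for HDAC1. With no minimum mean FPKM (12194 genes), 2351 genes were higher and 2177 lower for their length. With a minimum of 5 FPKM the median log2 ratio was 0.52. Scaled to the median gene, 1524 were higher and 2108 lower on the plain scale, the median was -0.16 and HDAC1 was at -0.32. Scaled to RpL32, 6103 were higher and 84 lower, the median was 1.95 and HDAC1 was at 1.81. At a threshold of 1.5-fold, 1167 were lower on the plain scale, and 2289 were higher and 2291 lower for their length. At 4-fold, 1285 were higher and 111 lower on the plain scale, and 427 were higher and 219 lower for their length. With siPiwi as the control library, 2131 were higher on the plain scale, 815 were lower for their length, the median was 0.30 and HDAC1 was at -0.069. With siMi2 as the control library the median was 0.54, HDAC1 was at 0.93, and the length-matched median of the neuronal genes was -0.35. The length-matched medians of 15 of the 44 lists had the other sign with siMi2 as the control library, and those of 12 with siPiwi. Of the 8 list medians past 2-fold or 0.5-fold for length, 1 had the other sign with siMi2, that of the neuronal genes, and 0 with siPiwi. Matching on length and mean FPKM together gave 1249 higher and 1090 lower.

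Plain log2 ratios of named genes past 2-fold that had the other sign with siMi2 as the control library were AcCoAS (0.18), CG6357 (-0.93), Col4a1 (-4.25), HDAC11 (-0.35), PGRP-LB (-1.79), betaTub97EF (-2.17), fbp (-0.46), fz3 (-0.49), nab (1.10) and rpr (-0.16). With siPiwi as the control library these were Buffy (0.058), Pxn (-1.08) and Shal (-2.31). The cause of these changes was not tested.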

Other observations

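Noncoding genes were examined apart from the comparisons above. Of 1949 long noncoding RNA genes of the annotation in the table, 277 reached the minimum, of which 89 were higher and 40 lower on the length-matched scale in the library labelled siRpd3 than in siEGFP (median 0.39), against 17.8% and 15.7% of all genes. lncRNA:CR44138 had 7 reads in the library labelled siRpd3, against 219 in siEGFP. lncRNA:CR45564 had 72 reads in the library labelled siRpd3, 0 in siEGFP, and its level was highest in siMi2 (4.48 FPKM in the library labelled siRpd3 and 6.69 FPKM in siMi2). Whether reads were counted by strand is not given in the sources used here, so an antisense RNA and its partner cannot be told apart. Of 320 snRNA and snoRNA genes 69 were kept, with 21 higher and 14 lower for their length, against 17.8% and 15.7% of all genes. The most extreme ratios rested on few reads. The highest, snRNA:U6:96Aa, had 6 reads in the library labelled siRpd3 and 0 in siEGFP. The lowest, snoRNA:Psi28S-3316b, had 0 and 17 reads in the same libraries. As the libraries were of poly(A) RNA, these counts are not read as a result.

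Germline genes were sparse but present. Of 31 listed, 22 were kept, with 4 higher and 5 lower on the length-matched scale (median 0.22). The highest was gcl, germ cell-less, with 21.1 FPKM in the library labelled siRpd3, against 1.84 FPKM in siEGFP (length-matched 2.57). Of 16 ecdysone response genes, 1 was higher and 3 were lower for their length. The higher one was Eip75B, a nuclear receptor gene, with 4.66 FPKM in the library labelled siRpd3 and 0.605 FPKM in siEGFP (1.22), and ImpL2, which binds insulin-like peptides, had 21.9 FPKM in the library labelled siRpd3, against 90.1 FPKM in siEGFP (-2.96). Of 33 aminoacyl-tRNA synthetase genes, 4 were higher and 5 lower for their length (median -0.56). The 14 trithorax genes kept gave 6 higher and 0 lower on the plain scale (median log2 ratio 0.92). For their length 0 were higher and 2 lower (median 0.11), against 17.8% and 15.7% of all genes. Fat body genes did not reach the minimum except for 2 of 13. Of 6 histone genes kept, 0 were higher and 2 lower for their length.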
